A study of Mus musculus with 2 samples.

Results

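The 10 NK cell receptor genes Klra4, Klra7, Klra8, Klrb1c, Klrc1, Klrc2, Klrd1, Klre1, Klrk1 and Ncr1 were taken by their symbols from the gene tables of RNA-seq libraries of splenic Treg cells, and all 10 were found among 20938 genes. The study asked what loss of Mettl14, a subunit of the enzyme that writes the m6A mark on RNA, does to Treg cells after islet transplantation. Recipients were made diabetic with streptozotocin and received BALB/c islets under the kidney capsule, and Treg cells were isolated from the spleen on day 7. The first library came from littermate controls, labelled wild type and Ctrl, which the methods also give as Mettl14f/f, and whether they carried Cre is not given in the sources used here. The second, labelled KD, came from Foxp3-Mettl14f/+ cKO mice, in which Cre under the Foxp3 promoter removes 1 floxed copy of Mettl14 in cells that express Foxp3. Both were on a C57BL/6J background, and neither set of recipients was given the anti-CD45RB and anti-CD40L antibodies that other arms of the study received. Both underwent diabetes, grafting and magnetic selection of CD4+CD25+ cells by depletion of other cells followed by CD25 selection. There was 1 library per genotype. The number of mice behind each library, their sex and their age are not given in the sources used here.

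The label gives the genotype of the KD library as a knockdown of Foxp3. Foxp3, the transcription factor that defines Treg cells, had a level of 1497 in the control library and 1548 in the library labelled KD. Its log2 difference was 0.05 (95% interval -0.06 to 0.15), so its RNA level goes against that label. By western blot, the study reported less FOXP3 protein in Treg cells of Foxp3-Mettl14f/+ mice than of littermate controls. That blot is described before the transplantation experiments and no grafting is stated for its cells, so it may not match the cells sequenced on day 7. The second library is called the library labelled KD throughout. Mettl14 had levels of 917 and 741, a log2 difference of -0.31 (95% interval -0.45 to -0.16), which is counted over the whole gene and not over the floxed exons. Under a scaling that gives 16 T cell core genes the same summed level in both libraries (T cell core scaling), Mettl14 was at -0.00 and Foxp3 at 0.35 on the log2 scale, while the median of all genes moved from -0.04 to 0.26. Levels are the deposited values, which are reads divided by 1 size factor per library, and the libraries held 20239325 (control) and 18327535 (labelled KD) recovered reads. Differences are the log2 of the KD level plus 1 over the control level plus 1. Their 95% intervals (exact, Clopper-Pearson, from the reads) cover counting error only, since there was 1 library per genotype, and no difference here has a replicate check. No molecular identifiers tell repeated reads apart, so the intervals may be too narrow even for counting error. Genes with few reads varied beyond this: of the 1224 genes to which the control library gave 10 to 19 reads, 610 had none (0) in the library labelled KD.

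NK cells weigh activating against inhibitory receptors that read MHC class I and stress-induced molecules on other cells. In the mouse most of these receptors are C-type lectin-like proteins encoded side by side in the natural killer gene complex, among them the Ly49 family (Klra genes), the NKR-P1 family (Klrb1 genes) and the NKG2 family with its partner CD94. Activating members carry no signalling motif of their own and pass their signal through adaptors such as DAP12, DAP10 and FcεRIγ, whereas inhibitory members recruit phosphatases. NK cells lack CD4 and the T cell receptor, while some CD8 T cells and NKT cells carry several of the same receptors. In a library made from many cells, fewer cells of a type and less RNA per cell cannot be told apart.

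On GRCm38, 9 of the 10 genes lie on chromosome 6 within chr6:128778485-130233322, a part of the natural killer gene complex. In order along the chromosome these are Klrb1c at chr6:128778485-128789215, Klre1 at chr6:129577905-129585827, Klrd1 at chr6:129591782-129598775, Klrk1 at chr6:129610323-129623864, Klrc2 at chr6:129647496-129660689, Klrc1 at chr6:129666015-129678973, Klra4 at chr6:130043731-130067271, Klra8 at chr6:130115226-130129898 and Klra7 at chr6:130218605-130233322. Klre1 and Klrd1 are on the plus strand and the other 7 on the minus strand. Ncr1 is at chr7:4337724-4345164 on the plus strand. All 10 are annotated as protein coding.

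The promoters of 5 of these genes are shown because they are the control sequences of receptors whose levels are set side by side below, with and without a shared motif. Each is the 250 bases before a RefSeq start site on GRCm38.p6, written 5′ to 3′ on the strand of the gene, and capitals mark the RUNX site TGTGGT or its reverse complement ACCACA. Ncr1 is chr7:4337465-4337714 on the plus strand, and the others are on the minus strand of chromosome 6, namely Klrk1 at chr6:129623865-129624114, Klrb1c at chr6:128788642-128788891, Klra4 at chr6:130067272-130067521 and Klra8 at chr6:130129899-130130148.
Ncr1: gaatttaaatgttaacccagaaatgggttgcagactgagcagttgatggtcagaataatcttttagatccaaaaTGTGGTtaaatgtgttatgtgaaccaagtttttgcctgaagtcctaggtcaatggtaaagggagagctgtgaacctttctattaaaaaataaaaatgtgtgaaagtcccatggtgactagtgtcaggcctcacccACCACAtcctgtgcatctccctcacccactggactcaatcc
Klrk1: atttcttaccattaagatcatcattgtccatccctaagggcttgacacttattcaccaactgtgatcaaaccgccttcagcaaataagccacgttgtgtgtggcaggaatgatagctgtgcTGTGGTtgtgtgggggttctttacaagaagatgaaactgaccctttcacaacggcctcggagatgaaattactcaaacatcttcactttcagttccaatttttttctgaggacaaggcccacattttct
Klrb1c: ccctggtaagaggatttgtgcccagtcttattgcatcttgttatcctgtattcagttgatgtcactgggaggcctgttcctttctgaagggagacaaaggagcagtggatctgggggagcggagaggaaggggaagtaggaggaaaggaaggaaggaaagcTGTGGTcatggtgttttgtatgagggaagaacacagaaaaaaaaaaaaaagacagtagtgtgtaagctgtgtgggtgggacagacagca
Klra4: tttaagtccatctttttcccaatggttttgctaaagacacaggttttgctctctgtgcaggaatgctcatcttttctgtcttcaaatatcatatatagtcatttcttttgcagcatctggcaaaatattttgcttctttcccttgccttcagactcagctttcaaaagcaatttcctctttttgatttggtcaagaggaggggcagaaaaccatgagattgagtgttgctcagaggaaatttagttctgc
Klra8: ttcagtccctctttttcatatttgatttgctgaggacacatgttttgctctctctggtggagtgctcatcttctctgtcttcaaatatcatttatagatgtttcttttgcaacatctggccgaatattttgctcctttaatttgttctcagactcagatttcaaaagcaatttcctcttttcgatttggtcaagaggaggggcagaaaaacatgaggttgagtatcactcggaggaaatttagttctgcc

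RefSeq promoters were found for 9 of the 10 genes, in 14 windows. The RUNX site, searched on both strands, was in 8 of the 14 windows and in at least 1 window of 6 of the 9 genes, namely Klrb1c, Klrc1, Klrc2, Klre1, Klrk1 and Ncr1. Of 32851 promoter windows of the same length, 14.0% held it. No window of Klra4, Klra7 or Klra8 held these letters. The T-box half-site AGGTGT, searched with its reverse complement ACACCT, was in 0 of the 14 windows and in 11.8% of all promoters. The printed Klra4 and Klra8 promoters were 84.5% identical to each other. A match is a description of letters and not a site of binding.

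All 10 genes passed the minimum mean level of 1, and 7 were higher by 1.5-fold or more in the library labelled KD, 0 were lower by as much and 3 lay between. Of 16659 genes tested, 17.2% passed this threshold upward and 24.2% downward. Among the 11109 genes with at least 50 reads in each library, these shares were 12.1% and 8.57%. Under T cell core scaling, 9 of the 10 genes were higher by this threshold and 0 lower, where 28.2% of all genes were higher and 19.3% lower. The median log2 difference of the 10 genes was 0.74, against -0.04 over all genes tested. Summed over the 10 genes, the control library held 3320 reads and the library labelled KD 4646, or 164 and 253 in each 1000000 reads. The summed log2 difference was 0.72 (95% interval 0.65 to 0.78), a 1.64-fold higher level. The plot of levels by library shows each gene with its counting interval.

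**Figure D1:**
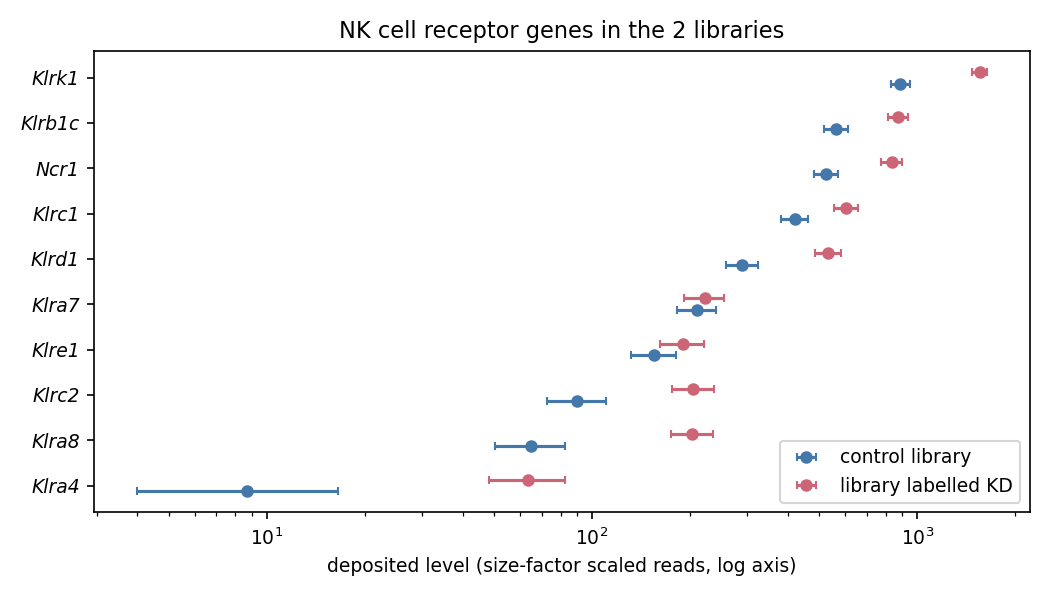
Deposited level (size-factor scaled reads, log axis) of the 10 NK cell receptor genes in the control library (blue) and the library labelled KD (red), with exact 95% Poisson intervals that cover counting error only. Levels in the library labelled KD run from 63.7 for Klra4 to 1557 for Klrk1, and the paired intervals overlap for Klra7 and Klre1.

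Of the activating receptors, Klrk1, which encodes NKG2D, the receptor for stress-induced ligands, had the most reads. The control library had a level of 888 and the library labelled KD 1557, from 918 and 1369 reads, and the log2 difference was 0.81 (95% interval 0.69 to 0.93). Ncr1, which encodes NKp46 and is among the most NK-restricted genes of the mouse, had levels of 523 and 834, from 541 and 733 reads, with a log2 difference of 0.67 (95% interval 0.51 to 0.83). Klrb1c, which encodes NK1.1, the antigen used to stain NK cells of C57BL/6 mice, had levels of 563 and 873, from 582 and 768 reads, with a log2 difference of 0.63 (95% interval 0.48 to 0.79). All 3 were higher in the library labelled KD, and their intervals lay above 0.

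The other activating genes had fewer reads and larger differences. Klrc2, which encodes NKG2C, had levels of 90.0 and 205, from 93 and 180 reads, and a log2 difference of 1.18 (95% interval 0.82 to 1.56). Klra8, which encodes Ly49H, the receptor that recognises a mouse cytomegalovirus protein, had levels of 64.8 and 204, from 67 and 179 reads, and a log2 difference of 1.64 (95% interval 1.24 to 2.08). Klra4, which encodes Ly49D, had levels of 8.71 and 63.7, from 9 and 56 reads, and a log2 difference of 2.74 (95% interval 1.84 to 4.07). These are the 3 genes of the 10 that also passed a 2-fold threshold, which 10.3% of all genes passed upward and 18.1% downward. Summed over the 6 activating genes, 2210 and 3285 reads gave a log2 difference of 0.80 (95% interval 0.73 to 0.88).

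The inhibitory genes of this set are Klrc1 and Klra7, and the log2 differences of both were under the 1.5-fold threshold. Klrc1, which encodes NKG2A, the inhibitory partner of CD94, had levels of 420 and 604, from 434 and 531 reads, and a log2 difference of 0.52 (95% interval 0.34 to 0.71). Klra7, which encodes the inhibitory receptor Ly49G, had levels of 210 and 222, from 217 and 195 reads, and a log2 difference of 0.08 (95% interval -0.21 to 0.36). Its difference was not detectable at this depth. Summed over both, 651 and 726 reads gave a log2 difference of 0.39 (95% interval 0.24 to 0.55). This sum rests on Klrc1 and Klra7 only and does not stand for inhibitory receptors in general. Among other genes described below as inhibitory, Klrb1b was past the 1.5-fold threshold, with a log2 difference of 0.85. Klrg1 was at 0.32 and Klri1 at -0.48, both under it. The other Klra genes were not sorted into activating and inhibitory ones, so whether the groups differ in general was not tested.

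Klrd1 and Klre1 encode partner chains that take their sign from the receptor they pair with. Klrd1, or CD94, which pairs with the NKG2 chains, had levels of 289 and 532, from 299 and 468 reads, and a log2 difference of 0.88 (95% interval 0.67 to 1.09). Klre1, which pairs with the products of Klri1 and Klri2, had levels of 155 and 190, from 160 and 167 reads, and a log2 difference of 0.29 (95% interval -0.03 to 0.62). Klrd1 was above the 1.5-fold threshold and Klre1 was not, and the Klre1 interval reached below 0.

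The reads were also compared by an exact, two-sided binomial test, with Benjamini-Hochberg adjustment over 14863 genes. It compares the libraries rather than the genotypes. At an adjusted p under 0.1 and a 1.5-fold difference it called 7 of the 10 genes higher and 0 lower, where it called 14.7% of all genes higher and 17.4% lower. When edgeR's exact test was given a coefficient of variation of 0.2 between replicates, an assumed value, 3 of the 10 genes were called higher, Klra4, Klra8 and Klrc2, and 0 lower, where 6.45% of all genes were higher and 9.75% lower. With a value of 0.4 it called 1, Klra4, and 0 lower, where 1.57% of all genes were higher and 3.83% lower.

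The share of each gene among the reads of all 10 does not depend on how the libraries were scaled. Klra4 made up 0.271% of these reads in the control and 1.21% in the library labelled KD, Klra8 2.02% and 3.85%, and Klrc2 2.80% and 3.87%. The odds against the other 9 genes were 4.49 times higher for Klra4 (95% interval 2.20 to 10.3), 1.95 times for Klra8 (1.46 to 2.63) and 1.40 times for Klrc2 (1.08 to 1.82). The other 3 shares with an interval apart from 1 were smaller in the library labelled KD. Klra7 made up 6.54% and 4.20%, Klrc1 13.1% and 11.4%, and Klre1 4.82% and 3.59%, with odds ratios of 0.627 (95% interval 0.511 to 0.768), 0.858 (0.748 to 0.985) and 0.736 (0.586 to 0.925). For Klrk1, Klrb1c, Ncr1 and Klrd1 the interval included 1, and Klrk1 held the most reads in both libraries, with 27.7% and 29.5%.

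Ratios of reads between 2 genes within a library are likewise free of scaling. The 8 pairs were chosen after their values were seen, and their intervals cover counting error only. The ratio of Klrc2 to Klrc1 reads, activating NKG2C over inhibitory NKG2A, was 0.214 (control) and 0.339 (library labelled KD), 1.58 times higher (95% interval 1.19 to 2.12). For Klra8 over Klra7 it was 0.309 and 0.918, 2.97 times higher (2.09 to 4.25), and for Klra4 over Klra7 it was 0.0415 and 0.287, 6.90 times higher (3.28 to 16.3). Klri2, the activating partner of Klre1, over Klri1, its inhibitory partner, went from 2.83 to 8.37, 2.95 times higher (1.98 to 4.42). The other 4 pairs had ratios nearer to 1. Ncr1 over Klrb1c was 0.930 and 0.954, a ratio of 1.03 (0.877 to 1.20), Klrk1 over Klrd1 had a ratio of 0.953 (0.803 to 1.13), Klrd1 over Klrc1 1.28 (1.05 to 1.56) and Klrc3 over Klrc1 1.29 (0.869 to 1.94).

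Levels were compared between genes per kilobase of the median protein-coding transcript length of GENCODE M21. In the control library the order was Klrk1 at 699, Klrc1 at 558, Klrb1c at 440, Ncr1 at 354, Klrd1 at 323, Klra7 at 198, Klre1 at 120, Klrc2 at 81.9, Klra8 at 55.0 and Klra4 at 6.99. The neighbours Ncr1 and Klrd1, and Klrc2 and Klra8, did not differ beyond counting error. In the library labelled KD the order was Klrk1 at 1226, Klrc1 at 802, Klrb1c at 683, Klrd1 at 595, Ncr1 at 564, Klra7 at 209, Klrc2 at 186, Klra8 at 173, Klre1 at 147 and Klra4 at 51.1. There Klrb1c, Klrd1 and Ncr1 overlapped as neighbours, as did Klra7, Klrc2, Klra8 and Klre1. The order depended on the length used, since per kilobase of all annotated exons Ncr1 led with 340 and 541. On the first scale Cd3e, a chain of the T cell receptor complex, was at 3069 and 2655, and Cd4 at 2606 and 1704.

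Several of these genes have near-identical copies, so reads could be split between them by the counting, which is not described in the sources used here. The share of the 50-base words of a gene's transcripts that also occur in a transcript of another gene was 38.6% for Klrc1, 33.1% for Klra8, 29.4% for Klrc2, 17.0% for Klrb1c, 12.3% for Klra7 and 4.68% for Klra4. It was 0% for Klrd1, Klre1, Klrk1 and Ncr1. No sequence was used here for Klra18, Klra21, Klra22 and Klra23, so sharing with these rows was not tested and the Klra shares are lower limits. By these words the most shared pair among the 10 genes was Klrc1 and Klrc2, whose coding sequences were 81.0% identical. By coding identity other pairs were closer, namely Klra8 and Klra9 at 91.9% and Klrc2 and Klrc3 at 88.5%. Klrc1 and Klrc2 share a run of 120 coding bases without a mismatch, at chr6:129677203-129677322 in Klrc1 and chr6:129658722-129658841 in Klrc2 on the minus strand of GRCm38, printed here because reads inside it cannot be assigned to 1 of the genes.
Klrc1 and Klrc2: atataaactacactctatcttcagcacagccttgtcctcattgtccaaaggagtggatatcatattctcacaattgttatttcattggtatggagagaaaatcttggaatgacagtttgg

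Klra8 shared most with the pseudogene Klra14-ps and Klra7 with the pseudogene Klra13-ps, neither of which is a row of the tables used here. Of the Ly49 genes that are rows, Klra9 held 10.7% of the 50-base words of Klra8, Klra10 held 5.05% and Klra3 held 2.83%, and Klra1 held 4.26% of those of Klra4. The coding sequences of Klra4, Klra7 and Klra8 were 74.0% to 79.4% identical to each other, with no shared run longer than 24 bases. Klrb1c shared most with Gm44511, a gene model that overlaps it. The values of Klra4, Klra7, Klra8, Klrc1, Klrc2 and Klrb1c are uncertain to at least this extent. For the Klra genes it could be larger, since Klra21, Klra22 and Klra23 together held 348 and 371 reads. Klra4, Klra7 and Klra8 together held 293 and 430. Which genes those reads came from was not tested. Klra8 summed with Klra3, Klra9 and Klra10 had 267 and 441 reads and a log2 difference of 0.95 (95% interval 0.73 to 1.18), against 1.64 for Klra8 alone. Klra4 summed with Klra1 had 75 and 110 reads and a log2 difference of 0.78 (95% interval 0.35 to 1.23), against 2.74 for Klra4 alone. Both sums were chosen after their values were seen, and they do not take in reads counted on pseudogenes. Without Klra4, Klra7 and Klra8, 5 of 7 genes were at least 1.5-fold higher, with a summed log2 difference of 0.71. Over all genes tested, 17.2% were higher by this threshold and 24.2% lower. Summing the 3 Klrc genes gave 575 and 787 reads and a log2 difference of 0.69 (95% interval 0.53 to 0.84).

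**Figure D2:**
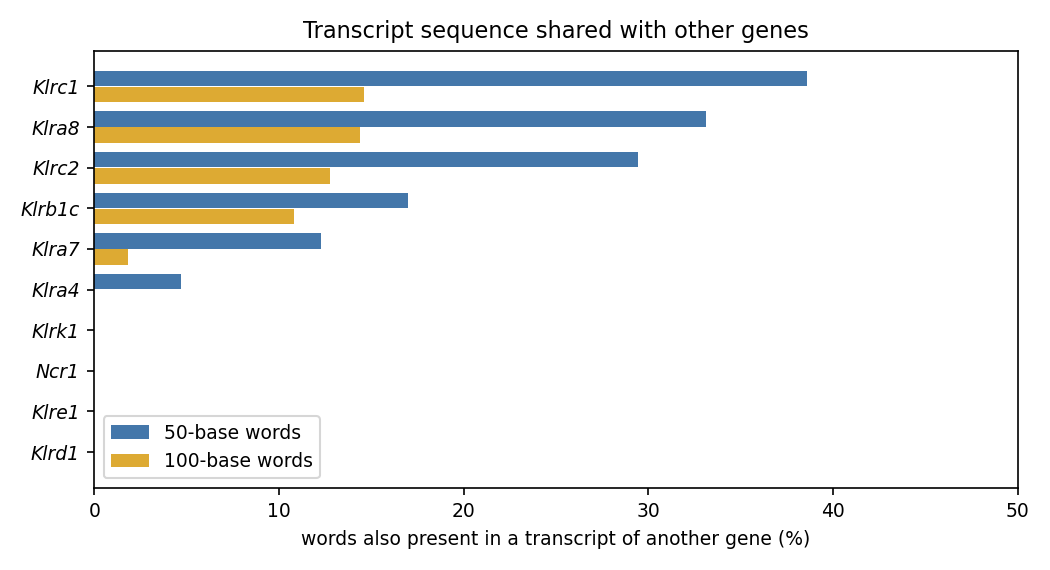
Share (percent) of the words of 50 bases (blue) and 100 bases (yellow) in the protein-coding transcripts of each gene that also occur in a transcript of another gene, from GENCODE M21. Klrc1 has the largest share at 50 bases, 38.6%, and Klrd1, Klre1, Klrk1 and Ncr1 have 0%.

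The other Ly49 genes were less uniform. Of 18 listed, 14 were rows of the tables and 13 passed the minimum level, of which 8 were higher by 1.5-fold or more and 2 lower, with a median log2 difference of 0.66. The shares over all genes tested were 17.2% higher and 24.2% lower. Klra2, which is also found on myeloid cells, had 356 and 776 reads (log2 difference 1.35), Klra17 had 68 and 199 (1.77) and Klra18 had 71 and 202 (1.73). Klra18, Klra19, Klra21, Klra22 and Klra23 are rows without a GENCODE match, and which genes their reads came from was not tested. Klra23 had 185 and 309 reads (0.97), whereas Klra21 had 142 and 58 (-1.05) and Klra22 had 21 and 4 (-1.94). Klra21 and Klra22 were the 2 lower rows, so both rest on reads without a GENCODE match. Klra21, Klra22 and Klra23 summed to 348 and 371 reads, a log2 difference of 0.32 (95% interval 0.11 to 0.54). Klra3 and Klra9 each had a log2 difference of 0.66, from 56 and 76 and from 98 and 132 reads. Klra10 was at 0.46, Klra6 at 0.01 and Klra1 at -0.06, the last of which is above 0 under T cell core scaling. Klra5 had 0 and 5 reads, Klra19 had 0 and 4, and Klra15 had 0 in both libraries. The 18 Klra genes of the tables together had 1451 and 2345 reads, a log2 difference of 0.93 (95% interval 0.83 to 1.02).

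Of the other Klr families, 10 of 11 listed genes were in the tables and 8 passed, with 5 higher, 0 lower and a median of 0.87. Here too the shares over all genes tested were 17.2% higher and 24.2% lower. Klrb1f, an activating NKR-P1 receptor, had 166 and 310 reads (1.13) and Klrb1b, an inhibitory one, 151 and 233 (0.85). Klri2 had 238 and 427 reads (1.07) and Klri1 84 and 51 (-0.48, 95% interval -1.02 to 0.03). Klrc3 had 48 and 76 reads (0.88) and Klrg2 had 19 and 32 (0.95). Klrg1, an inhibitory receptor found on mature NK cells and some Treg cells, had 119 and 127 (0.32), and Klrb1a 29 and 24. Klrb1 and Klrh1 had 0 reads in both libraries. The plot of differences shows the Klr genes with reads in both libraries beside Ncr1.

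**Figure D3:**
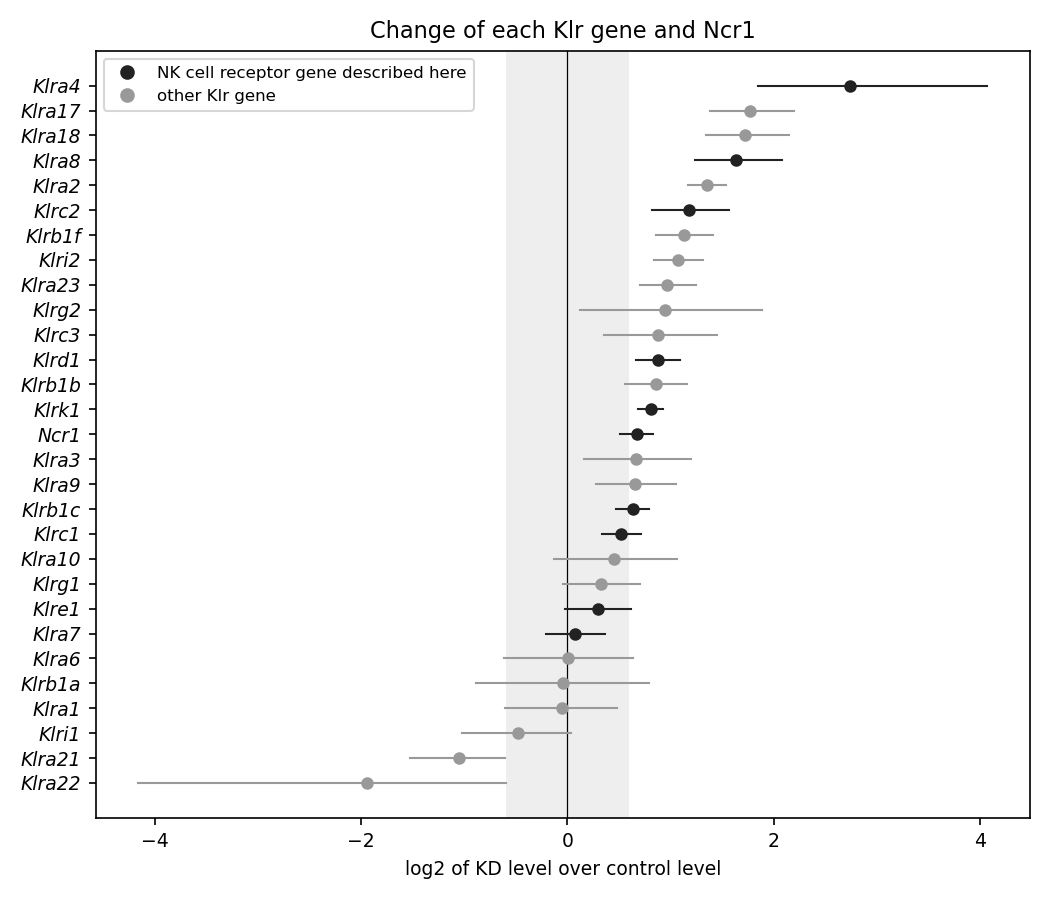
Log2 of the KD level over the control level (x axis) for Ncr1 and the Klr genes with reads in both libraries, in order of size, with exact 95% Clopper-Pearson intervals for counting error. The grey band marks differences under 1.5-fold, black points are the 10 genes described here, and these run from 0.08 for Klra7 to 2.74 for Klra4.

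Position was not used to choose the 10 genes. Over all genes tested, 17.2% were higher by 1.5-fold or more and 24.2% lower. In the interval between the outermost of the 9 genes on chromosome 6, which spans 1.45 Mb, 34 genes were in the tables and 33 passed, of which 18 were higher by 1.5-fold or more and 4 lower, with a median log2 difference of 0.63. This interval is bounded by the 9 genes and its counts include them. Of the 24 genes that passed and are not among the 10, 12 were higher and 4 lower, with a median of 0.61. Of the 15 that are no Klr gene, 5 were higher and 4 lower, with a median of 0.14. The higher ones were Clec2i, Cd69, Clec12b, Clec1b and Clec7a, the last of which encodes the myeloid receptor Dectin-1 and had 833 and 1750 reads (1.30). The lower ones were Clec2g, Clec2f, Gabarapl1, with 571 and 257 reads (-0.92), and Tmem52b, with 8 and 0 reads.

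**Figure D4:**
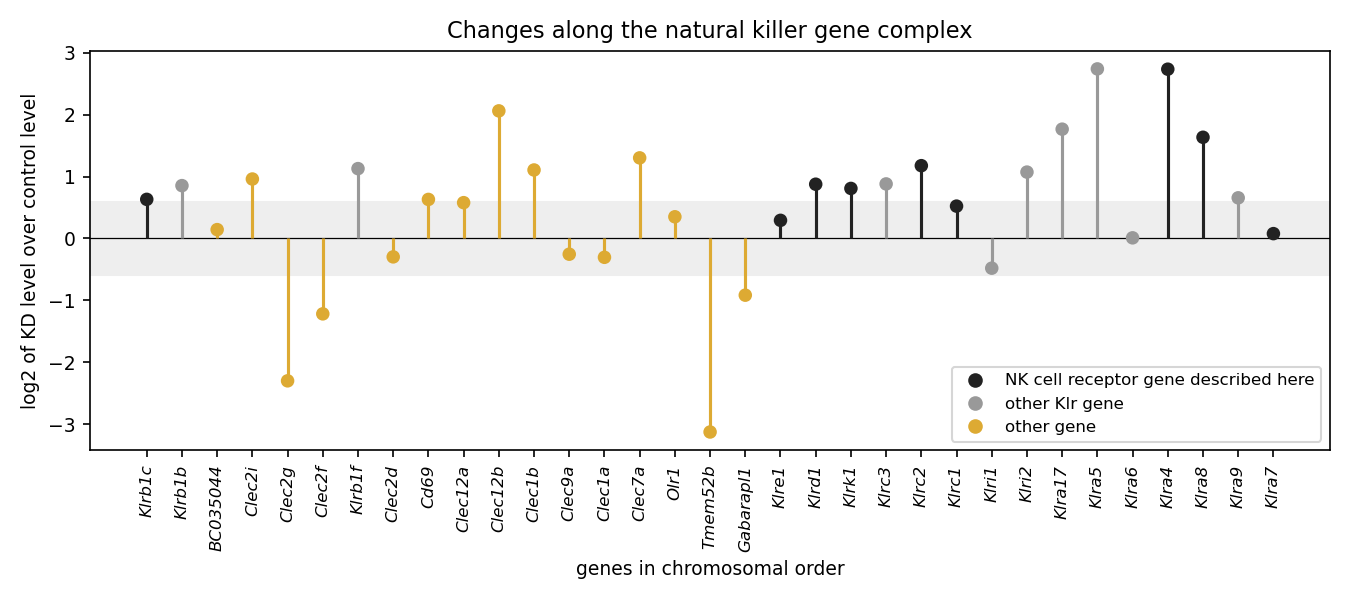
Log2 of the KD level over the control level (y axis) for 33 genes that passed the minimum level, in chromosomal order (not to scale). They lie in the part of the natural killer gene complex bounded by 9 of the 10 genes described here. Black points are 9 of the 10 genes described here, grey points other Klr genes and yellow points other genes, the grey band marks differences under 1.5-fold, and Klra5 and Tmem52b have 0 reads in 1 library, so that their height depends on the pseudocount.

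The adaptors and kinases that carry the signal were compared next. For this and the later lists, the shares over all genes tested were 17.2% higher and 24.2% lower. Among genes with at least 50 reads in each library they were 12.1% and 8.57%. Of 18 listed, 17 passed, 6 were at least 1.5-fold higher and 0 lower, with a median log2 difference of 0.42. Tyrobp, which encodes DAP12, the adaptor of Ly49D, Ly49H and NKG2C, had levels of 2013 and 3276 (0.70), and Fcer1g, the adaptor of NKp46 and NK1.1, had levels of 1523 and 2673 (0.81). Syk, a kinase that acts below DAP12 and is also abundant in B cells and macrophages, had levels of 5209 and 12827 (1.30). Inpp5d (0.76), Lat2 (1.07) and Plcg2 (0.85) were the other 3. Hcst, which encodes DAP10, the adaptor of NKG2D, was at 0.54, and Cd247, the T cell receptor zeta chain, at -0.58, both under the threshold.

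Of 19 listed ligands of these receptors, 18 were in the tables and 14 passed, with 3 higher, 4 lower and a median of 0.21. Clec2i, a ligand of NKR-P1 receptors, had levels of 833 and 1623 (0.96), Raet1a, a ligand of NKG2D, had 2 and 19 reads and Raet1e, another, 9 and 18. Clec2g had 172 and 29 reads (-2.30), Clec2f 67 and 24 (-1.22), Cdh1, which encodes E-cadherin, the ligand of KLRG1, 173 and 78 (-0.91) and Raet1c 9 and 4. H2-T23, the Qa-1 heavy chain that CD94 and NKG2 read, was at 0.21.

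Other receptors found on NK cells gave 6 higher and 1 lower of 23, with a median of 0.34. The higher ones were Cd244a (0.96), Fcgr3 (0.79), Il18rap (0.83), Cd69 (0.63), Pilrb1 (1.10) and Lilr4b (0.78), and the lower one was the checkpoint receptor Lag3, with 462 and 181 reads (-1.11). Of 15 transcription factors, 4 were higher and 1 lower, with a median of 0.42. Irf8 (1.01), Bach2 (0.63), Ikzf3 (1.15) and Zbtb16 (0.78) were higher and Tox2 (-1.07) lower, while Eomes and Tbx21, the T-box factors of NK cell development, were at 0.20 (95% interval 0.05 to 0.35) and 0.26.

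Of 16 effector genes, 15 passed, with 5 higher, 0 lower and a median of 0.32. Gzma, a granzyme abundant in NK cells, had levels of 934 and 1670 (0.84), and Fasl (0.97), Ccl3 (1.07), Ccl4 (1.38) and Ccl5 (0.71) were the other 4. Prf1, which encodes perforin, had levels of 589 and 668 (0.18). Of 14 homing and maturation genes, 5 were higher and 0 lower, with a median of 0.52. These were S1pr5 (1.23), the receptor by which mature NK cells leave the marrow, Cx3cr1 (1.10), Cxcr4 (0.88), Itgam (0.66) and Itgax (0.65). Several genes of these lists are also expressed by B cells, T cells or myeloid cells.

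**Figure D5:**
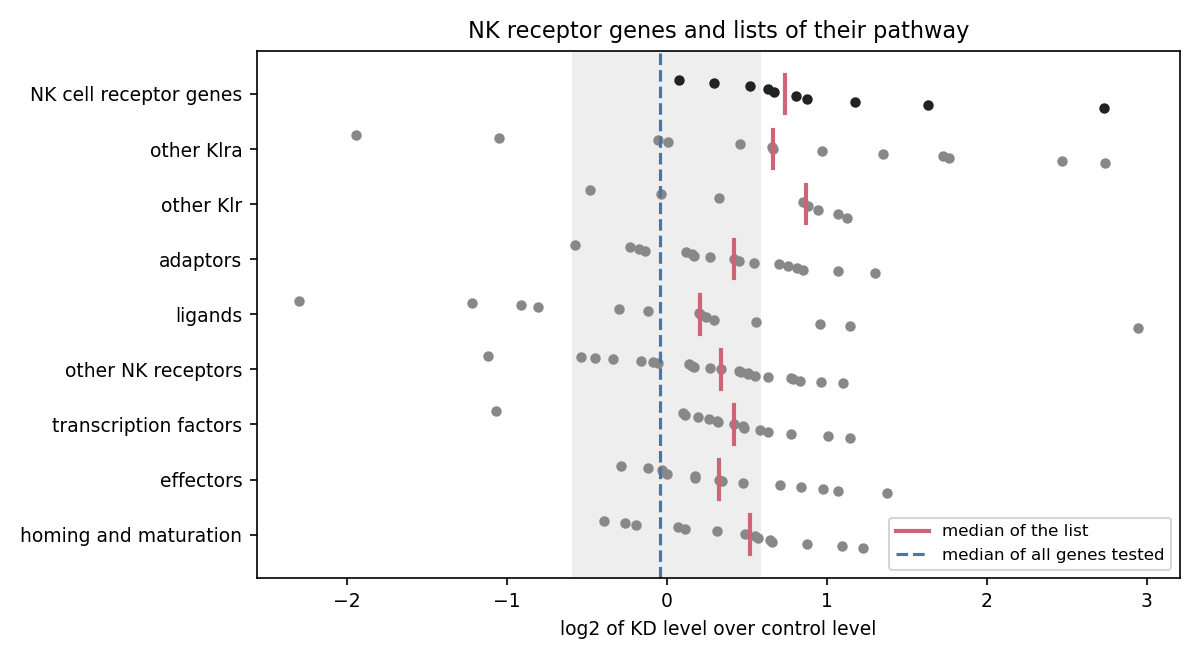
Log2 of the KD level over the control level (x axis) of the genes that passed in each list, 1 point per gene, with the list's median as a red bar, the median of all genes tested (-0.04) as a dashed blue line and differences under 1.5-fold as a grey band. The 10 NK cell receptor genes have a median of 0.74, and the lists of pathway genes have medians from 0.21 for ligands to 0.52 for homing and maturation.

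Markers of cells other than Treg cells also differed between the libraries, and not all in the same direction. Of 12 NK markers, 3 of which are among the 10 genes, 7 were higher and 0 lower, and none was at 0. The 9 others summed to levels of 7591 and 11501, a log2 difference of 0.60 (95% interval 0.56 to 0.64). This sum is weighted to the adaptors Tyrobp (2013 and 3276) and Fcer1g (1523 and 2673), which had the highest levels of the 9. Of the 9, 5 were higher, while Eomes (0.20), Prf1 (0.18), Itga2 (0.16) and Txk (0.08) lay between. The CD8 genes Cd8a and Cd8b1 summed to 787 and 4016 (2 of 2 higher), 10 B cell markers to 9995 and 43913 (10 higher) and 12 macrophage markers to 4117 and 14842 (12 higher, Marco at 0 reads in the control library). Of 10 plasmacytoid dendritic cell markers 8 were higher and 0 lower (median 0.98), and of 10 granulocyte markers 2 and 1 (median 0.36). These granulocyte markers summed to 229876 and 312600, the largest sums of the lists in this paragraph and above those of the T cell core genes. Of 10 erythroid markers 1 was higher, Hbb-bs with 3 and 2626 reads, and 5 were lower (median -0.59). The erythroid markers summed to 20448 and 16545. Of 11 gamma delta T cell markers 4 were found, with 2 higher and 0 lower (median 1.39). These 4 did not move together. Sox13 had 5 and 38 reads, Blk was at 2.34, Maf at 0.43 and 5830411N06Rik at -0.48 (95% interval -0.86 to -0.12). The 10 Treg markers summed to 8288 and 9214, with 2 higher and 1 lower, and the 16 T cell core genes to 68610 and 55622, with 0 higher and 3 lower. The part of these cells in the levels of the 10 genes was not tested.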

How the data were processed

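RNA-seq of splenic Treg cells gave 1 control library and 1 library labelled KD. Per the labels, the reads were aligned to mm10 with TopHat, whereas the submitters' processing notes name bcl2fastq 2.0, STAR, StringTie and DESeq2. The counting, annotation, strand setting and read length are not given in the sources used here. The deposited values are a signal, namely reads that the authors divided by 1 size factor per library. Steps of 0.967 and 1.14 gave whole reads for 100% of values within 0.01 of a whole number. A pseudocount of 1, a minimum mean level of 1 and a threshold of 1.5-fold were used. The binomial test, run on genes whose reads in the libraries summed to 10 or more, at an adjusted p under 0.1, called 2183 of 14863 genes higher and 2583 lower. edgeR's exact test with an assumed coefficient of variation of 0.2 called 958 and 1449, and with 0.4 it called 234 and 569. A floor of 3 reads was a level of 2.90 in the control library and 3.41 in the library labelled KD.

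The 10 genes and all lists were chosen with earlier results of these data known. The genes named were the 10, all other Klr genes, the genes of the pathway lists past 1.5-fold with a mean level of at least 10, otherwise the most abundant ones, Mettl14 and Foxp3, and the 5 genes most alike. A few further genes were named after their values were seen, such as those of the natural killer gene complex and H2-T23. Symbols were matched to GENCODE M21 on GRCm38 for 20524 of 20938 genes. Alternatives were pseudocounts of 0.1 and 5, minimum means of none and 10, TMM, median-of-ratios and T cell core scaling, a 2-fold threshold, genes above 0 in both libraries and summed or left-out Klra genes. The steps were tested on simulated data. The tools were edgeR 4.0.16 and DESeq2 1.42.0 under R 4.3.3, and matplotlib 3.10.9, pandas 2.3.3, scipy 1.17.1 and numpy 2.4.6 under Python 3.11.15.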

Additional observations from a re-analysis of the deposited data

How the results depend on the processing

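No paired analysis was possible because there was 1 library per genotype. Of 94 values of single genes among the 10 under the alternatives, 88 stayed within their counting interval, 6 moved and 0 reversed, and 0 fell below 0. Many of the 88 could not move. The minimum mean, the limit to genes above 0 in both libraries and the summed or left-out Klra genes do not enter a single gene's difference. Only the pseudocounts and scalings could change it. All 6 moved when the T cell core genes were set equal, which shifts the median of all genes from -0.04 to 0.26 by construction. Under that scaling the median of the 10 genes was 1.04 and their summed log2 difference 1.02, with 28.2% of all genes at least 1.5-fold higher and 19.3% lower, and single genes were at 0.38 for Klra7, 0.93 for Klrb1c, 0.83 for Klrc1, 1.18 for Klrd1, 1.11 for Klrk1 and 0.97 for Ncr1. The number of genes at least 1.5-fold higher under it was 5 for ligands, 12 for other receptors, 10 for transcription factors, 8 for effectors and 9 for homing genes. A 2-fold threshold left 3 of the 10 genes, where 10.3% of all genes were higher by as much. In the comparison of reads, edgeR's exact test called 3 with an assumed coefficient of 0.2 and 1 with 0.4, in place of 7. The shares of all genes called higher were 6.45% and 1.57%, in place of 14.7%. Leaving out Klra4, Klra7 and Klra8, the median-of-ratios scaling of the read test and the T cell core scaling of the gene complex were added after seeing the data. Depth limits Klra4 most, with 9 reads in the control library, and a spread between mice was not measured.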

Other observations

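The genes whose difference was most like that of the 10 summed NK cell receptor genes, among the 11109 genes with at least 50 reads in each library, were Ccdc125 with 650 and 910 reads, Tmem40 with 179 and 251, Igsf6 with 1962 and 2745, Tnfrsf1b with 3050 and 4270 and Ifit1bl2 with 146 and 205. Each had a log2 difference of 0.72. This likeness rests on 1 difference between 2 libraries. Of the 11109 genes, 309 lay inside the counting interval of the summed genes and 804, or 7.24%, lay above it.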
